A study of Homo sapiens with 18 samples.

Results

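The mitochondrial ribosomal protein genes were followed across 6 groups of human prostate cancer cells. Members were the array probes whose gene symbol is MRPL or MRPS followed by a number, with pseudogenes and antisense genes left out, that had a detection p under 0.05 on at least 3 of the 18 arrays. This gave 105 probes of 110 with such a symbol, for 76 genes of the 13680 tested. By symbol, 48 of the genes encode proteins of the large subunit and 28 of the small subunit. No measured change was used to choose them. The brightest probe of each gene was used, and all 76 of those probes were detected on all 18 arrays.

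Mitochondria keep a ribosome of their own, which makes the few proteins encoded in mitochondrial DNA, all of them core subunits of the respiratory chain and the ATP synthase. Its ribosomal RNAs come from mitochondrial DNA, but every one of its proteins is encoded in the nucleus, made in the cytosol and imported. Many of these proteins have a bacterial counterpart, while others are found only in mitochondria. Tetracyclines such as doxycycline bind bacterial ribosomes and can also inhibit the mitochondrial ribosome, which is why these genes are of interest where doxycycline is the inducer.

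Total RNA was measured on Illumina bead arrays, 3 per group. 22Rv1 and LNCaP cells, both established prostate cancer lines, carried the tetO-Gal4 construct for forced expression of galectin-4 (LGALS4), without doxycycline (Dox) or with it. 22Rv1-M4 cells, a further line of the same study, carried either a scramble control hairpin (shCtrl) or a hairpin against galectin-4 (shGal4). The dose and time of Dox, the promoter of the transactivator, the number of clones and the origin of the 3 replicates were not named in the labels, so p-values measure the spread between these arrays, which may be technical. No group had Dox without the construct, so Dox and galectin-4 cannot be told apart. No label names Dox for 22Rv1-M4, so the knockdown was read as a comparison without it.

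Levels are log2 intensities after background correction and quantile normalization, a difference of 1 being a doubling. Mean raw intensity lay between 305.6 and 403.5 per array, and 19798 to 21317 probes (41.9% to 45.1%) were detected per array. LGALS4 was 7.45 log2 units lower with shGal4 and 1.92 higher in LNCaP with Dox. In 22Rv1 it differed by -0.06 (standard error 0.21, limma adjusted p = 0.874), so the galectin-4 label of the 22Rv1 arrays with Dox was not borne out by this probe, and they are called the arrays labelled 22Rv1 with Dox. EPCAM, KRT8 and KRT18 were detected on all arrays. KLK3 was detected on 0 of 3 arrays in each of the 4 groups of the 22Rv1 lineage and on 3 of 3 in both LNCaP groups. The 6 prostate luminal markers on the array all passed the filter. Among markers of other cell types, PTPRC of leukocytes did not pass it. Of the fibroblast collagens COL1A1, COL1A2 and COL3A1, 1 passed, and the 2 endothelial markers PECAM1 and VWF passed.

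The arrays of a group did not lie equally close together. The first axis of the differences within groups took up 24.8% of that variation. On it the second array labelled 22Rv1 with Dox stood at 23.1 and the third at -25.4, while the third scramble array stood at 17.8. The direction of such an axis is arbitrary and was set so that MRPL47, a member, correlates with it positively. The 34 members with a correlation above 0.5 with this axis made up 44.7% of the 76, against 13.6% of all genes. A correlation below -0.5 was found in 7 of the 76, against 22.6% of all genes. Placed along the same axis, the groups had mean positions of -18.3 for 22Rv1, -4.88 for 22Rv1 with Dox, -7.67 for LNCaP, 25.5 for LNCaP with Dox, 9.75 for scramble and -4.33 for shGal4. The axis moved with the groups too, and the 9.75 of scramble rests partly on the third array, at 27.5. Its part in the results was not tested, and values with the axis position as a covariate, an alternative chosen after seeing the data, are given beside the counts.

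Genes with an adjusted p under 0.05 in limma, by Benjamini-Hochberg across the 13680 genes, count as called, and errors of changes are standard errors from that fit with 3 arrays a group. With Dox in LNCaP, 26 of 76 members (34.2%) were called higher, against 10.9% of all genes, and 7 (9.21%) were called lower, against 17.0% of all genes. The median member rose by 0.24 where the median gene stood at -0.08. Among the arrays labelled 22Rv1 with Dox, 7 members were called higher and 7 lower (9.21% each), against 9.14% and 15.7% of all genes, and the member median was -0.04 against -0.06. In the knockdown 6 members (7.89%) were called higher and 9 (11.8%) lower, against 13.0% and 10.3% of all genes, with a median of -0.07 against 0.02. At an unadjusted p under 0.05 the numbers of members were 45, 26 and 28 in the same order. The share of members called higher in LNCaP was thus above the background, and the shares of the other comparisons lay near or below it.

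**Figure D1:**
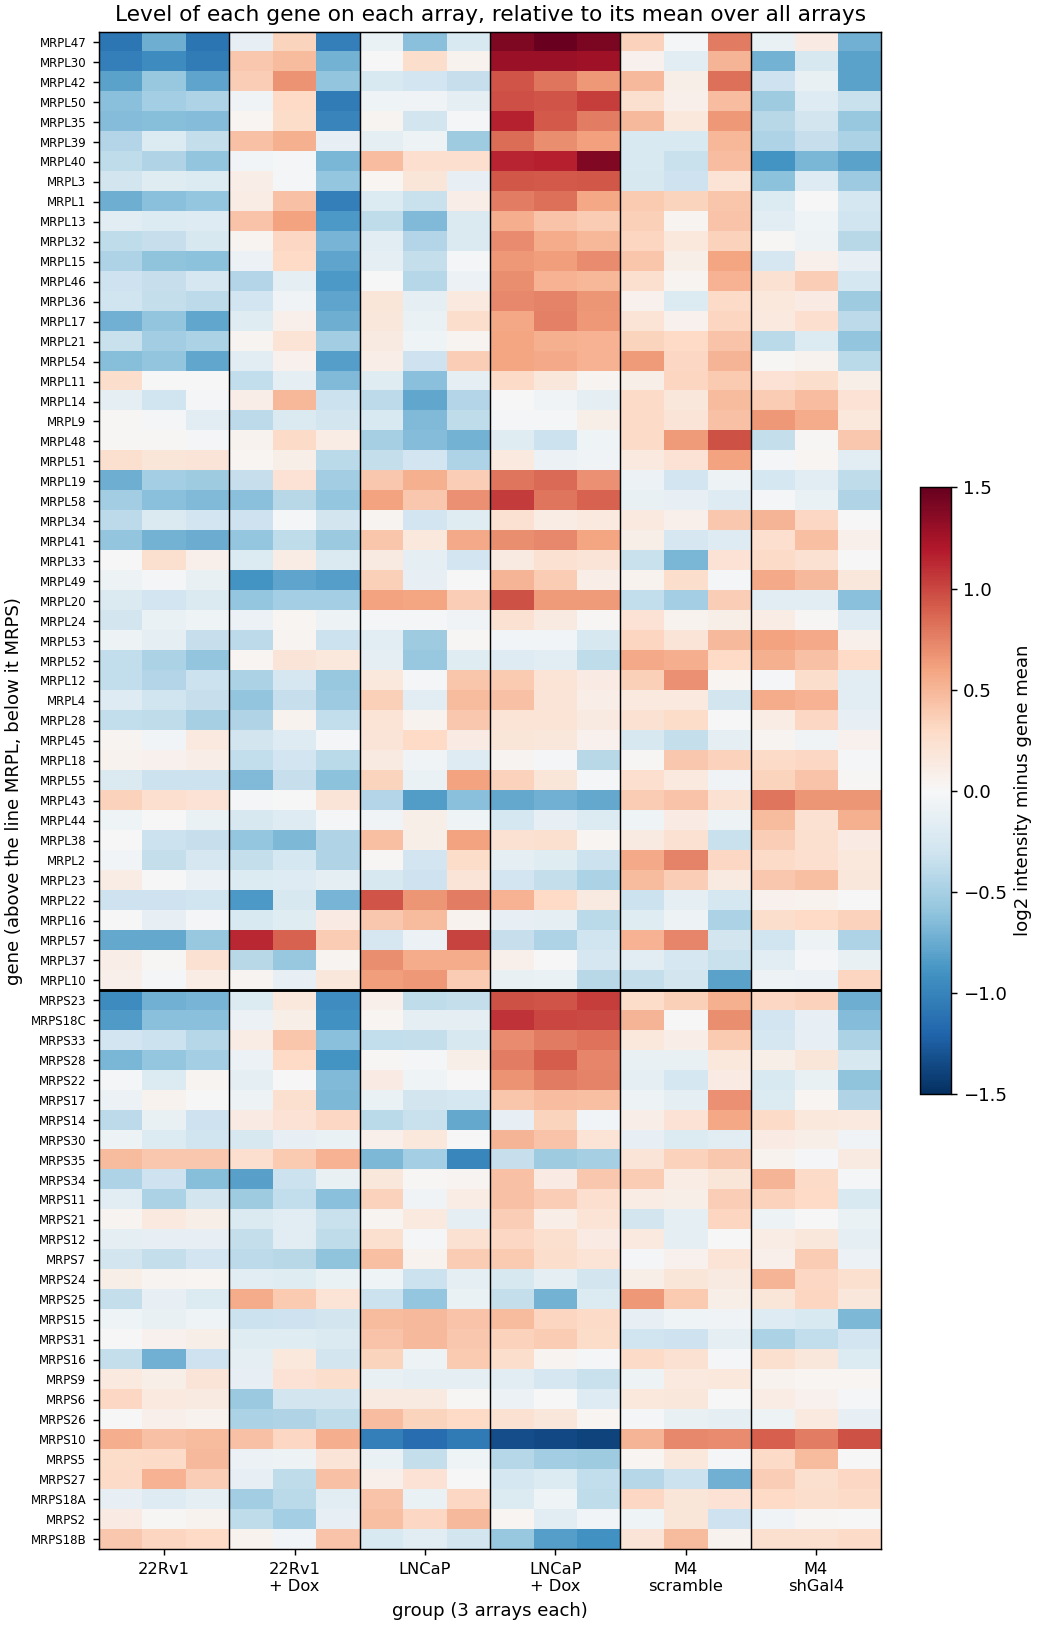
Log2 intensity of each of the 76 genes on each of the 18 arrays, minus the gene's mean over all arrays, with MRPL genes above the line and MRPS genes below it, each ordered by its change with Dox in LNCaP. Many of the 26 genes called higher in LNCaP with Dox are red in that group, but colour and call are not the same thing. MRPL14, called higher, had a mean of 9.34 there, below its 9.40 over all arrays. MRPL19, not called, had 10.18 there against 9.40 over all arrays. The third array labelled 22Rv1 with Dox is bluer than the other 2 for many of the genes called higher in LNCaP.

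The median of the members on an array, each gene taken relative to its own mean, showed the same order. It was -0.18, -0.21 and -0.24 on the 22Rv1 arrays and -0.18, -0.02 and -0.39 on those labelled with Dox. In LNCaP it was 0.04, -0.10 and 0.00 without Dox and 0.34, 0.22 and 0.13 with Dox, and here the groups did not overlap. Scramble arrays had 0.15, 0.11 and 0.22, and shGal4 arrays 0.10, 0.13 and -0.12. In 22Rv1 the groups overlapped, with the first array with Dox among those without it and the third below all of them, and the 22Rv1-M4 groups overlapped as well.

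**Figure D2:**
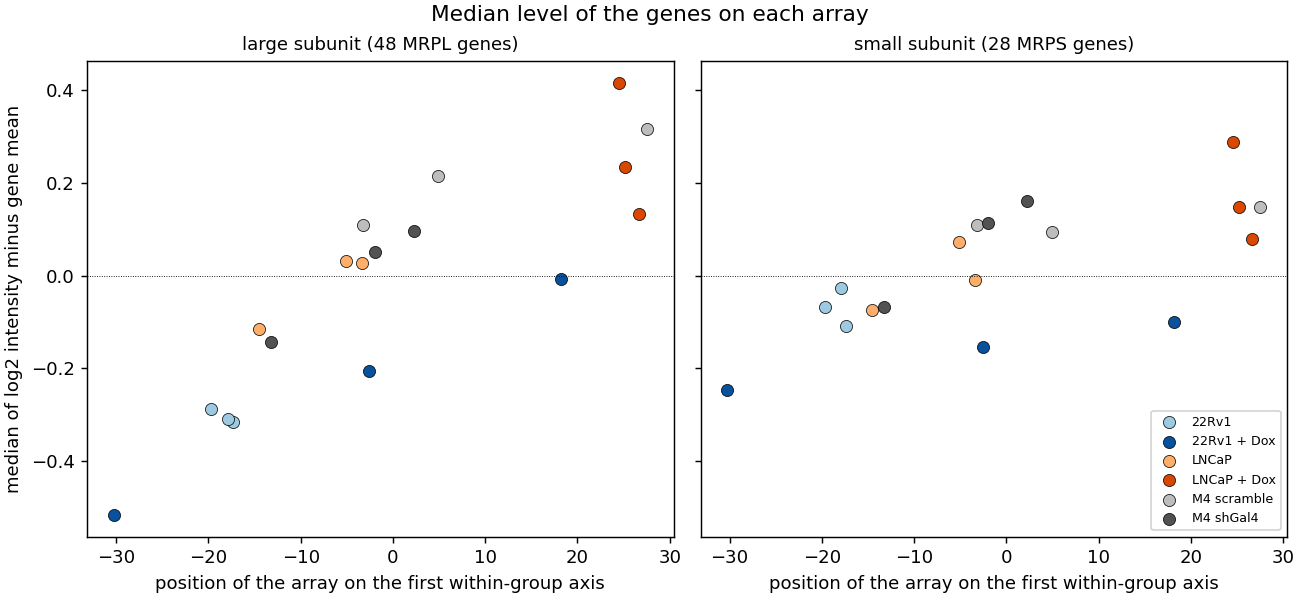
Median over MRPL genes (left) and MRPS genes (right) of the log2 intensity minus the gene mean, on each array, against the position of the array on the first within-group axis; colours mark the 6 groups of 3 arrays. For the large subunit the 3 LNCaP arrays with Dox stand between 0.13 and 0.42, and the lowest array, the third labelled 22Rv1 with Dox, is at -0.52; the small subunit covers a narrower range, -0.25 to 0.29.

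The members were also counted by subunit. With Dox in LNCaP, 19 of 48 MRPL genes rose and 4 fell (median 0.32), while 7 of 28 MRPS genes rose and 3 fell (median -0.03). The shares called higher were 39.6% and 25%, against the 10.9% of all genes, and the shares called lower 8.33% and 10.7%, against 17.0%. In the knockdown 5 MRPL genes rose and 8 fell (median -0.13), and among MRPS genes 1 rose and 1 fell (median -0.03). The shares were 10.4% and 16.7% for MRPL and 3.57% each for MRPS, against 13.0% and 10.3% of all genes. For 22Rv1 the counts were 5 higher and 4 lower of 48 (median 0.06) against 2 higher and 3 lower of 28 (median -0.17), or 18.8% and 17.9% called in either direction. Of all genes 9.14% were called higher there and 15.7% lower. The products of MRPS30 and MRPS18A sit in the large subunit despite their symbols, and with both moved there the LNCaP counts were 19 higher and 5 lower of 50 against 7 higher and 2 lower of 26. These counts describe the classes, and the difference between subunits was not tested. Proteins without a bacterial counterpart, 29 of the 76 when MRPL47 (counterpart of bacterial L29) is counted with the bacterial type, had 8 higher and 1 lower in LNCaP, and the other 47 had 18 higher and 6 lower. With MRPL47 among them, as first assigned, the counts were 9 higher and 1 lower of 30 against 17 higher and 6 lower of 46.

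**Figure D3:**
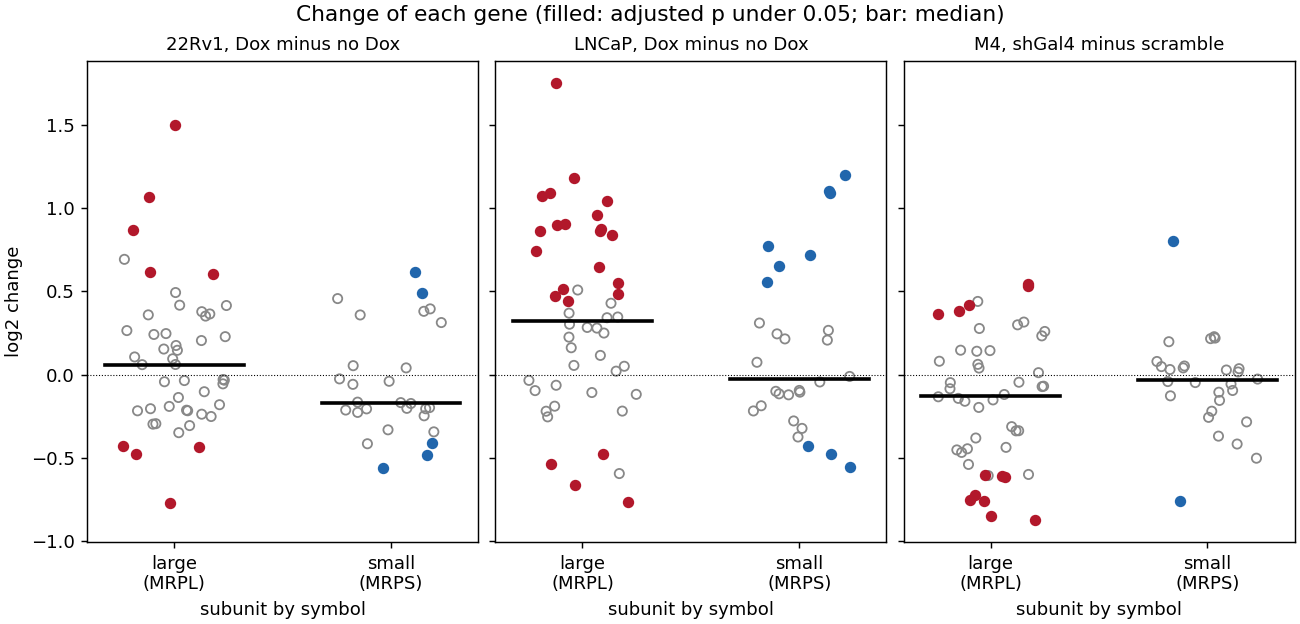
Log2 change of each member in the 2 Dox comparisons and in the knockdown, by subunit; filled points have an adjusted p under 0.05, open points do not, and the bar is the median. In LNCaP the MRPL genes reach from -0.76 to 1.75 with a median of 0.32, whereas in the other comparisons the medians stay between -0.17 and 0.06.

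The largest rise of any member was that of MRPL47 in LNCaP. Its product is the counterpart of bacterial L29, which lies beside the exit of the tunnel through which the new protein leaves. Its level was 8.22, 7.70 and 8.09 without Dox and 9.72, 9.81 and 9.74 with Dox. The groups were far apart, the rise was 1.75 ± 0.27 (3.37-fold; limma adjusted p = 1.70e-04), and the second probe of the gene rose by 1.28. On the other arrays MRPL47 was at 7.25, 7.60 and 7.23 in 22Rv1, 8.20, 8.66 and 7.30 with Dox, 8.67, 8.30 and 9.11 with scramble and 8.23, 8.45 and 7.60 with shGal4. The LNCaP arrays with Dox were the highest of the 18, and those of 22Rv1 without Dox among the lowest, beside the third array labelled 22Rv1 with Dox. The change in 22Rv1 was 0.69 ± 0.27 (limma adjusted p = 0.0636) and the knockdown difference -0.60 ± 0.27 (adjusted p = 0.112), neither of which passed the threshold. MRPL47 was the 1 member still called higher in LNCaP with the axis position as a covariate, with a change of 0.77; under that setting 1.24% of all genes were called higher, 0.541% lower, and the member median was -0.01.

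Other genes of the large subunit rose with it in LNCaP. MRPL30, the counterpart of bacterial L30, was at 7.42, 7.69 and 7.48 without Dox and 8.72, 8.73 and 8.70 with Dox. Arrays with Dox lay above all without it, by 1.18 ± 0.23 (limma adjusted p = 0.00117), and the other probe rose by 1.32. MRPL42, found only in mitochondrial ribosomes, was at 9.58, 9.51 and 9.45 without Dox and 10.74, 10.60 and 10.45 with Dox. Again no array overlapped, the rise was 1.09 ± 0.24 (limma adjusted p = 0.00266), and its second probe rose by 1.22. The remaining 16 MRPL genes called higher rose by 0.44 (MRPL9) to 1.07 (MRPL50). MRPL35, the counterpart of bacterial L35, rose by 1.04 ± 0.22, but its 2 other probes, which differed by -0.13 and -0.03, did not pass. MRPL13, MRPL15 and MRPL32, also of the bacterial type, rose by 0.87, 0.84 and 0.86.

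In the small subunit the rise in LNCaP was carried by 7 genes. MRPS23, without a bacterial counterpart, was at 8.77, 8.30 and 8.33 without Dox and 9.64, 9.63 and 9.73 with Dox, a rise of 1.20 ± 0.25 (limma adjusted p = 0.00165). MRPS18C, one of 3 genes for S18-type proteins, was at 10.90, 10.73 and 10.73 without Dox and 11.95, 11.87 and 11.86 with Dox, a rise of 1.11 ± 0.21 (adjusted p = 9.15e-04). MRPS33 was at 10.73, 10.74 and 10.85 without Dox and 11.81, 11.88 and 11.91 with Dox, a rise of 1.09 ± 0.18 (adjusted p = 3.57e-04), and its second probe rose by 1.77. In these 3 genes every array with Dox was above every array without it. MRPS28, MRPS22, MRPS17 and MRPS14 rose by 0.78, 0.72, 0.65 and 0.56. The S18 genes did not move one way, since MRPS18B and MRPS18A were both called lower in the same arrays.

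The 7 members that fell in LNCaP included genes of both subunits. MRPL10, which anchors the stalk that recruits translation factors, was at 8.43, 8.46 and 8.19 without Dox and 7.69, 7.70 and 7.38 with Dox, a fall with a change of -0.76 ± 0.16 (limma adjusted p = 0.00156). Its dimmer second probe, detected on 8 of 18 arrays, differed by 0.08 and did not pass. MRPL37, of the mitochondrial type, was at 11.63, 11.49 and 11.49 without Dox and 11.00, 10.94 and 10.67 with Dox, with a change of -0.66 ± 0.14 (adjusted p = 0.00227). Neither gene's arrays overlapped between the groups. MRPS18B was at 9.89, 9.96 and 9.84 without Dox and 9.54, 9.29 and 9.21 with Dox, with a change of -0.55 ± 0.14 (adjusted p = 0.00618). MRPL16, counterpart of bacterial L16 near the catalytic centre, was at 9.47, 9.55 and 9.12 without Dox and 8.94, 8.92 and 8.67 with Dox, with a change of -0.54 ± 0.14 (adjusted p = 0.00859). These arrays did not overlap either. MRPL22, whose bacterial counterpart lines the exit tunnel, was at 10.65, 10.36 and 10.47 without Dox and 10.22, 10.00 and 9.83 with Dox, with a change of -0.48 ± 0.15 (adjusted p = 0.0189); its second probe went the other way, by 0.25, and did not pass. MRPS2, the counterpart of bacterial S2, was at 8.62, 8.48 and 8.65 without Dox and 8.20, 8.00 and 8.13 with Dox, with a change of -0.47 ± 0.13 (adjusted p = 0.0121). MRPS18A, the seventh, changed by -0.43 ± 0.14 with overlapping arrays. MRPL16 and MRPL22 lost their calls without the third Dox array, with changes of -0.45 and -0.38. Without the second Dox array those of MRPL22 (-0.47) and MRPS2 (-0.42) were lost, and that of MRPL22 also without the first control array (-0.40). Under median scaling the calls of MRPL16, MRPL22 and MRPS2 were lost, with changes of -0.59, -0.50 and -0.55. When probes were averaged, those of MRPL10 (-0.34) and MRPL22 (-0.11) were lost.

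The genes that moved in LNCaP lay along the within-group axis. Of the 26 called higher, 24 had a correlation with it above 0.5 (median 0.86), and the 7 called lower had a median of -0.71. With the axis position as a covariate, 1 member was called higher and 0 lower in LNCaP by limma (9 higher and 3 lower at an unadjusted p under 0.05), and 243 genes of 13680 were called at all. LNCaP arrays with Dox stood at 24.5 to 26.7 on the axis and those without at -14.5 to -3.35, so within these arrays the axis and the treatment cannot be told apart.

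Promoters of MRPL47, MRPL30 and MRPL42, which had large rises in LNCaP and hold 1 each of 3 motifs, are shown with that of MRPL57, whose largest change was in 22Rv1. Each run holds 250 bases before and 50 after a start of the gene in RefSeq, build GRCh38.p14, read 5′ to 3′ along the gene. Capitals mark letters of a motif that is known as the core of sites for NRF1 (GCGCANGCG), ETS factors such as GABPA (CCGGAAGT) or YY1 (AAGATGGCG), regulators of nuclear genes for mitochondrial proteins. MRPL47 lies at chr3:179604589-179604888 on the minus strand and holds the ETS letters, starting 39 bases before the gene's start. MRPL30 is at chr2:99180934-99181233, plus strand, with the NRF1 letters on the opposite strand 115 bases before the start. MRPL42 is at chr12:93467264-93467563, plus strand, with the YY1 letters 8 bases after the start. MRPL57 is at chr13:21176408-21176707, plus strand, with the NRF1 letters 74 bases before the start.
MRPL47: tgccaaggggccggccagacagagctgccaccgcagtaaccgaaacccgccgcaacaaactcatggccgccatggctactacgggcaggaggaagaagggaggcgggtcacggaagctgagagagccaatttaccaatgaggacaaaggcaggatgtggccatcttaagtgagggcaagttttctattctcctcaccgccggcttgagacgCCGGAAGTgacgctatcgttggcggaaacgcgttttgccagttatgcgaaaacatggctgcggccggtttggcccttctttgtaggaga
MRPL30: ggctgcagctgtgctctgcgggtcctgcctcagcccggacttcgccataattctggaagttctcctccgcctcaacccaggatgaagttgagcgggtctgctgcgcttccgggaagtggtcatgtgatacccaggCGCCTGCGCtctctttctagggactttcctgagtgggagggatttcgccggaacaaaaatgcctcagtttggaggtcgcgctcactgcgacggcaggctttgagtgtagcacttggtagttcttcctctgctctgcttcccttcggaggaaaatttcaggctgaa
MRPL42: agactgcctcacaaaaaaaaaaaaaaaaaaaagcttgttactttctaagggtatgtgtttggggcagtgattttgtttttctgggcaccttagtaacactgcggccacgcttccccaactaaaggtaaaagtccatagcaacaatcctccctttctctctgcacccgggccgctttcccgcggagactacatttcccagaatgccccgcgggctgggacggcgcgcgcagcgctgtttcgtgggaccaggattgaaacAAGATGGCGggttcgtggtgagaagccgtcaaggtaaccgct
MRPL57: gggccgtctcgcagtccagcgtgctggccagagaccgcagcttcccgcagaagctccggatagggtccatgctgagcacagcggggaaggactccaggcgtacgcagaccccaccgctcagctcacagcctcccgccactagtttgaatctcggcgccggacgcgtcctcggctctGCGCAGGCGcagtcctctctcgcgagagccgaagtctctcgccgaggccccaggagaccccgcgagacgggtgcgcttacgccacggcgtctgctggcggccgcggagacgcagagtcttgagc

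Searched on both strands, the NRF1 letters were in 14 of the 68 members with a promoter in the table (20.6%), against 9.02% of all 27305 genes, a gene with several starts counting once if any of them held the letters. The ETS letters were in 11 (16.2%), against 4.95%, and the YY1 letters in 13 (19.1%), against 2.14%. Counted by promoter, the shares were 17.9%, 15.5% and 15.5% of the 84 of the members, against 7.52%, 4.14% and 1.75% of all 35116. At least 1 of the 3 was in 33 members (48.5%). Of the 13 members with the YY1 letters, 10 had them after the start, while 0 of the 14 with the NRF1 letters did. No motif is contained in another. Among the 21 members with a promoter that rose in LNCaP, 28.6% held the NRF1 letters, 14.3% the ETS letters and 23.8% the YY1 letters. Among the 47 others the share was 17% for each, and the differences were not tested.

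Fewer members moved in the arrays labelled 22Rv1 with Dox, and the largest change there was in a different gene. MRPL57, a small protein of the large subunit found only in mitochondria, was at 8.30, 8.30 and 8.50 without Dox and 10.19, 9.95 and 9.44 with Dox. The groups did not overlap, and the rise was 1.50 ± 0.27 (2.82-fold; limma adjusted p = 3.26e-04). A dimmer second probe of MRPL57 differed by 0.18 and did not pass. MRPL30 was at 6.40, 6.49 and 6.38 without Dox and 7.84, 7.91 and 6.72 with Dox, a rise of 1.07 ± 0.23 (limma adjusted p = 0.00174) with the third Dox array closest to the controls. MRPL42 was at 9.00, 9.23 and 9.01 without Dox and 10.17, 10.47 and 9.20 with Dox, a rise of 0.87 ± 0.24 (adjusted p = 0.0107). Here the third Dox array, at 9.20, lay below the highest control, at 9.23, so the groups overlapped, and the call was lost without the first (0.76) or the second Dox array (0.61).

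Smaller rises were called in 4 further genes. MRPL39, without a bacterial counterpart, was at 9.01, 9.23 and 9.08 without Dox and 9.88, 9.97 and 9.31 with Dox, a rise of 0.62 ± 0.19 (limma adjusted p = 0.0204). MRPS25, likewise of the mitochondrial type, was at 7.03, 7.26 and 7.18 without Dox and 7.94, 7.77 and 7.60 with Dox, a rise of 0.62 ± 0.16 (adjusted p = 0.00823). MRPL52 was at 7.67, 7.55 and 7.44 without Dox and 8.06, 8.22 and 8.19 with Dox, a rise of 0.60 ± 0.13 (adjusted p = 0.00208). No array overlapped in these 3 genes, nor in MRPS14, the counterpart of bacterial S14, which rose by 0.49 ± 0.15. Under median scaling in place of quantile normalization the calls of MRPL39, MRPS25 and MRPL52 were lost, with changes of 0.48, 0.41 and 0.40; that of MRPL39 was also lost without the first (0.57) or the third control array (0.60) or the first (0.54) or second Dox array (0.49).

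Among the members that fell, MRPL49, of the mitochondrial type, was at 8.26, 8.32 and 8.22 without Dox and 7.44, 7.54 and 7.51 with Dox, with a change of -0.77 ± 0.15 (limma adjusted p = 5.24e-04). MRPS6, counterpart of bacterial S6, was at 10.53, 10.37 and 10.35 without Dox and 9.67, 9.95 and 9.95 with Dox, with a change of -0.56 ± 0.12 (adjusted p = 0.00147). MRPS26 was at 9.83, 9.90 and 9.88 without Dox and 9.35, 9.37 and 9.44 with Dox, with a change of -0.48 ± 0.11 (adjusted p = 0.00353). All 3 were lower on each Dox array than on any control array, and their calls held under all 16 alternatives run. MRPL11, at the base of the stalk, was at 10.63, 10.36 and 10.36 without Dox and 9.99, 10.22 and 9.71 with Dox, with a change of -0.48 ± 0.15 (adjusted p = 0.0265), and its 2 other probes changed by -0.59, which passed, and -0.24, which did not. MRPL18, counterpart of bacterial L18, was at 10.29, 10.30 and 10.33 without Dox and 9.86, 9.95 and 9.83 with Dox, with a change of -0.43 ± 0.15 (adjusted p = 0.0367). The arrays of MRPL11 and MRPL18 did not overlap between the groups. MRPL37 was at 11.02, 10.95 and 11.16 without Dox and 10.51, 10.36 and 10.97 with Dox, with a change of -0.43 ± 0.14 (adjusted p = 0.0314), and the third Dox array lay among the controls. The calls of MRPL11, MRPL18 and MRPL37 were lost under median scaling. That of MRPL18 was lost without any 1 of the 6 arrays (-0.48 to -0.38). MRPL11 lost its call without the first control (-0.39), the first Dox (-0.49) or the third Dox array (-0.34). MRPL37 lost it without the first (-0.44) or the third control (-0.37) or the first (-0.38) or second Dox array (-0.31). With only the arrays compared, MRPL11 and MRPL37 kept their changes but not their calls, and with the axis position MRPL39 (0.42) and MRPL37 (-0.31) lost theirs.

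One array decided much of the 22Rv1 count. Without the third array labelled with Dox, which stood lowest on the axis, 22 members were called higher and 7 lower, where 11.6% and 19.4% of all genes were called. Without the second, 4 were called higher and 5 lower, where 7.7% and 11.1% of all genes were called. Only 3 of the 7 members called higher had an axis correlation above 0.5. With the axis position as a covariate 6 members were called higher and 10 lower, against 9.68% and 14.7% of all genes. With the within-group axis as a covariate, which leaves the changes as they are and narrows their errors, 17 were called higher. Of all genes 11.7% were then called higher.

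Of the 9 members that fell in the knockdown 8 were of the large subunit, which holds 48 of the 76 members. MRPL42 was at 10.28, 9.89 and 10.62 with scramble and 9.49, 9.68 and 9.00 with shGal4, with a change of -0.87 ± 0.24 (limma adjusted p = 0.0113). MRPL35 was at 10.02, 9.69 and 10.18 with scramble and 9.12, 9.26 and 8.96 with shGal4, with a change of -0.85 ± 0.22 (adjusted p = 0.00736). MRPL40, of the mitochondrial type, was at 9.24, 9.14 and 9.93 with scramble and 8.57, 8.79 and 8.67 with shGal4, with a change of -0.76 ± 0.19 (adjusted p = 0.00536). Every probe of MRPL42 and MRPL35 fell and passed, and the arrays of these genes did not overlap. MRPS18C was at 11.38, 10.87 and 11.56 with scramble and 10.58, 10.75 and 10.21 with shGal4, with a change of -0.76 ± 0.21 (adjusted p = 0.0113). MRPL21, counterpart of bacterial L21, was at 11.03, 10.99 and 11.12 with scramble and 10.29, 10.49 and 10.11 with shGal4, with a change of -0.75 ± 0.15 (adjusted p = 9.86e-04), and its second probe by -0.62. MRPL30 was at 7.49, 7.26 and 7.94 with scramble and 6.72, 7.18 and 6.62 with shGal4, with a change of -0.72 ± 0.23 (adjusted p = 0.0277). Here too no array overlapped, but in MRPL42, MRPL30 and MRPS18C the third scramble array was the highest of its group and the third shGal4 array the lowest, and each call was lost without either of them. Without the third scramble array their changes were -0.69, -0.53 and -0.61, and without the third shGal4 array -0.68, -0.61 and -0.61. That of MRPL30 was also lost without the first scramble (-0.75) or the first shGal4 array (-0.66). Its call was lost as well with the deposited log2 matrix (-0.45), with the axis position (-0.40) and, with an unchanged value, with no detection filter. MRPL50, MRPL48 and MRPL54 changed by -0.61, -0.61 and -0.60.

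The rises in the knockdown were led by MRPS27, whose product has repeats of the kind that bind RNA in mitochondria. Its level was 9.17, 9.28 and 8.88 with scramble and 9.98, 9.85 and 9.91 with shGal4. No array overlapped, the rise was 0.80 ± 0.16 (1.74-fold; limma adjusted p = 0.00105), and the other probe rose by 0.74. MRPL16 was at 8.89, 9.00 and 8.60 with scramble and 9.34, 9.37 and 9.42 with shGal4, a rise of 0.54 ± 0.14 (limma adjusted p = 0.00819). MRPL10 was at 7.44, 7.53 and 7.00 with scramble and 7.72, 7.72 and 8.13 with shGal4, a rise of 0.54 ± 0.16 (adjusted p = 0.0156). MRPL44, which resembles RNA-cutting enzymes of the RNase III family, was at 7.85, 8.05 and 7.84 with scramble and 8.40, 8.14 and 8.46 with shGal4, a rise of 0.42 ± 0.12 (adjusted p = 0.0142). In these 3 the groups stood apart. MRPL41, of the mitochondrial type, was at 11.16, 10.82 and 10.88 with scramble and 11.33, 11.52 and 11.16 with shGal4, a rise of 0.38 ± 0.14 (adjusted p = 0.0479), with overlapping groups. MRPL43 was at 10.10, 10.14 and 9.94 with scramble and 10.52, 10.37 and 10.37 with shGal4, a rise of 0.36 ± 0.12 (adjusted p = 0.0356), without overlap. Under median scaling 1 member was called higher and 11 lower, against 4.92% and 9.16% of all genes. Of the 6 rises that of MRPS27 alone kept its call there, with a change of 0.72. MRPL10 lost its call without the third scramble (0.37) or the third shGal4 array (0.40). MRPL44 lost it without the first scramble (0.39), the first shGal4 (0.39) or the third shGal4 array (0.36). MRPL41 and MRPL43 lost theirs without any of 4 and of 5 arrays, with changes of 0.29 to 0.38 and 0.31 to 0.39. With only the arrays compared the calls of MRPL10, MRPL44, MRPL41 and MRPL43 were lost, that of MRPL41 also with the replicate block (limma adjusted p = 0.0629), and that of MRPL43 also with the mean of its probes (0.23) and with the axis position (0.32). Median scaling turned the share of calls that were higher from 55.7% to 34.9% over all genes.

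The members that changed in the knockdown also followed the axis, the 9 that fell with a median correlation of 0.85 and the 6 that rose with one of -0.66. Without the third shGal4 array 4 members were called higher and 4 lower, and without the third scramble array 4 and 5. Over all genes the shares were 10.9% and 9.77% in the first case and 10.5% and 10.4% in the second. With the axis position as a covariate 6 members were called higher and 6 lower, against 11.6% and 10.4% of all genes.

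**Figure D4:**
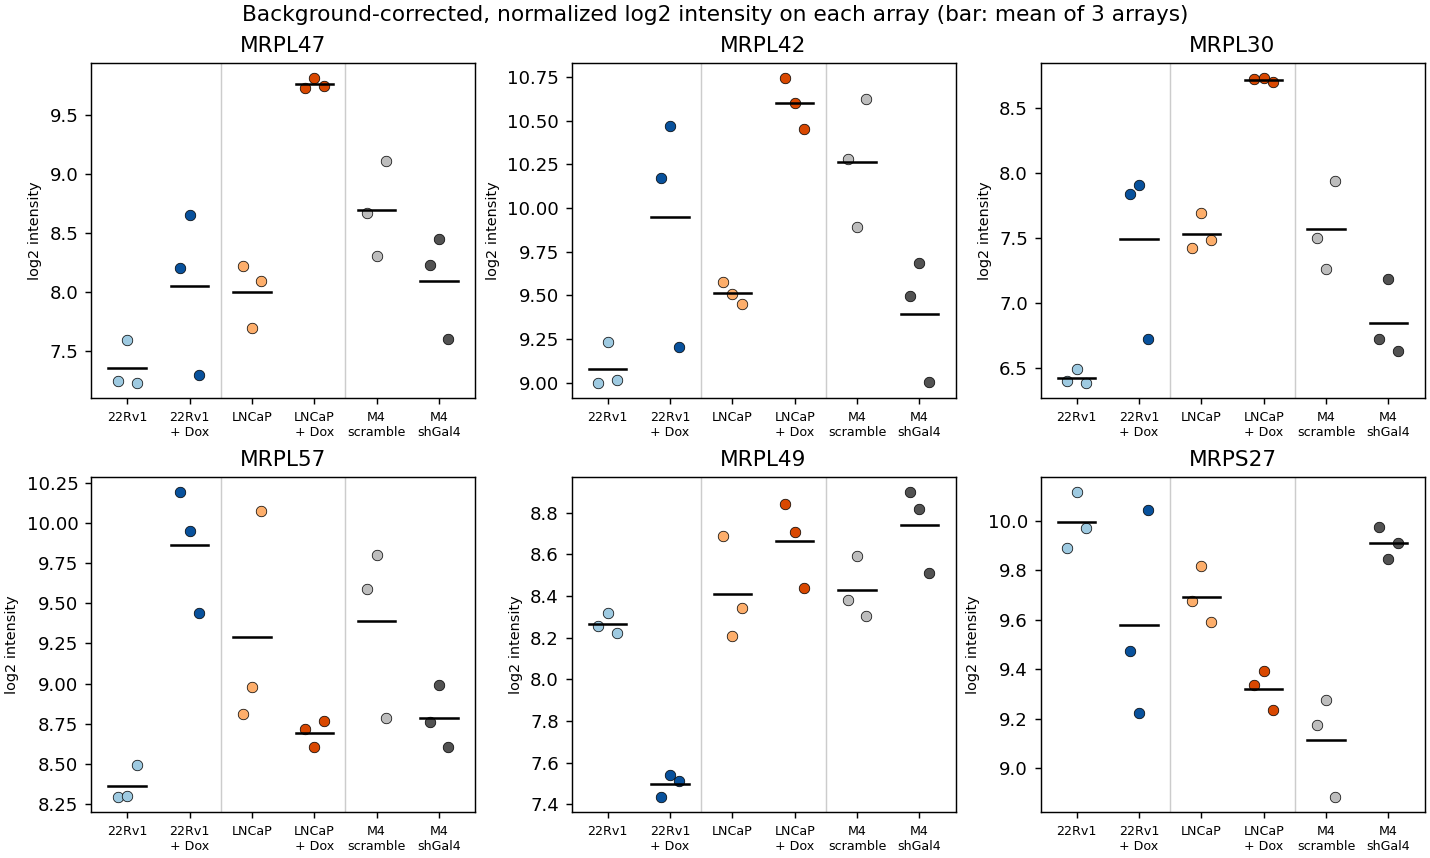
Log2 intensity on each of the 18 arrays for 6 genes with large changes; points are arrays in the order of their replicate numbers, and bars are means of 3. MRPL47, MRPL42 and MRPL30 have their highest group means in LNCaP with Dox and lower means with shGal4 than with scramble, MRPL57 has its highest mean on the arrays labelled 22Rv1 with Dox, and MRPS27 its lowest with scramble.

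LNCaP Dox and the knockdown share no arrays, so their calls could be set beside each other. Of the 9 members that fell in the knockdown, 7 (77.8%) were among the 26 that rose in LNCaP with Dox (26.9% of those), namely MRPL21, MRPL30, MRPL35, MRPL40, MRPL42, MRPL50 and MRPS18C. MRPL10 and MRPL16 fell in LNCaP and rose in the knockdown, which is 28.6% of the 7 and 33.3% of the 6. In 0 members did a call go the same way in both. Over all genes, 20.1% of those that fell in the knockdown rose in LNCaP and 29.8% of those that rose in the knockdown fell in LNCaP, while 13.6% and 3.31% went the same way. In LNCaP and the arrays labelled 22Rv1 with Dox, 4 genes rose in both, MRPL30, MRPL39, MRPL42 and MRPS14 (57.1% of the 7 and 15.4% of the 26). MRPL37 and MRPS2 fell in both, 28.6% of each list of 7. Over all genes, 16.2% of those that rose in 22Rv1 rose in LNCaP and 27.3% of those that fell in 22Rv1 fell in LNCaP. MRPL11 fell in 22Rv1 and rose in LNCaP (14.3% of the 7 and 3.85% of the 26), and 0 members rose in 22Rv1 and fell in LNCaP. Over all genes, 3.78% of those that fell in 22Rv1 rose in LNCaP. Of those that rose in 22Rv1, 17.5% fell in LNCaP. The 7 genes that rose in LNCaP and fell in the knockdown had axis correlations of 0.83 to 0.91, and the part of the axis in this overlap was not tested. MRPL30 and MRPL42 were called in all 3 comparisons.

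The Dox responses of the lines were compared in an interaction contrast, LNCaP minus 22Rv1. It called 12 of 76 members (15.8%), against 18.8% of all genes, 8 of them with a positive difference and 4 with a negative one. MRPL57 differed most. In LNCaP it was at 8.81, 8.98 and 10.07 without Dox and 8.72, 8.60 and 8.77 with Dox, a change of -0.59 ± 0.27 that did not pass (limma adjusted p = 0.105), against the rise of 1.50 in 22Rv1. The third LNCaP array without Dox was about 1 log2 unit above the other two. The difference of responses was -2.09 ± 0.38 (limma adjusted p = 5.41e-04), and without that array it was -1.70.

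MRPL49 fell in 22Rv1 and in LNCaP was at 8.69, 8.21 and 8.34 without Dox and 8.84, 8.71 and 8.44 with Dox, a change of 0.25 ± 0.15 that did not pass. Its responses differed by 1.02 ± 0.21 (limma adjusted p = 0.00136). MRPL11 was at 10.19, 9.74 and 10.22 without Dox and 10.65, 10.54 and 10.41 with Dox in LNCaP, a rise of 0.48 ± 0.15, and the responses differed by 0.96 ± 0.22 (adjusted p = 0.00344). MRPL11 was the 1 member called in opposite directions in the lines. MRPS22, without a bacterial counterpart, was at 10.21, 10.04 and 10.28 without Dox and 10.10, 10.23 and 9.58 with Dox in 22Rv1 and at 10.36, 10.17 and 10.24 without Dox and 10.91, 11.02 and 10.98 with Dox in LNCaP, and the responses differed by 0.92 ± 0.23 (adjusted p = 0.00721). MRPL46 was at 8.77, 8.74 and 8.83 without Dox and 8.64, 8.94 and 8.22 with Dox in 22Rv1 and at 9.09, 8.65 and 8.99 without Dox and 9.78, 9.61 and 9.57 with Dox in LNCaP, a difference of 0.92 ± 0.26 (adjusted p = 0.016). In both genes the 22Rv1 groups overlapped and the LNCaP groups did not. The calls of MRPL57, MRPL49, MRPL11, MRPS22 and MRPL46 all held with the axis position as a covariate. In that setting 7 members were called, 5 higher and 2 lower, against 9.02% and 8.06% of all genes.

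**Figure D5:**
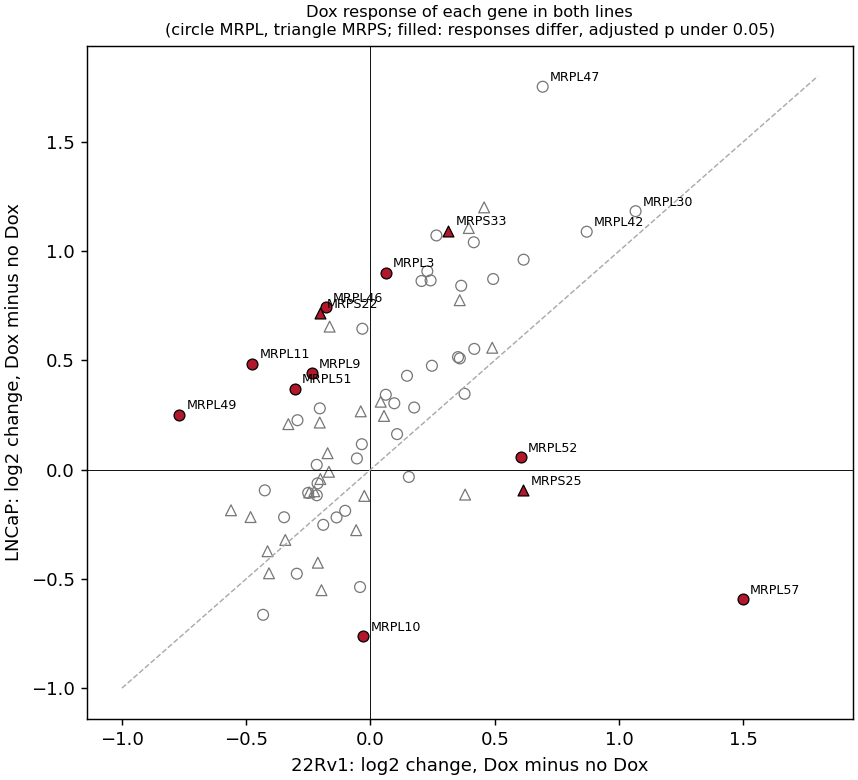
Log2 change with Dox of each member in LNCaP against that in 22Rv1, circles for MRPL and triangles for MRPS genes, filled where the responses differed at an adjusted p under 0.05; the dashed line marks equal change. MRPL57 lies far to the lower right (1.50 in 22Rv1, -0.59 in LNCaP), and MRPL49 and MRPL11 lie to the upper left.

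Without Dox the lines differed in these genes about as often as in all genes, but with more of them higher in LNCaP. Comparing LNCaP with 22Rv1, limma called 41 of 76 members (53.9%), against 50.3% of all genes. Of the members 32 (42.1%) were higher in LNCaP and 9 (11.8%) lower, against 23.7% and 26.6% of all genes. The member median was 0.30 and the median of all genes -0.02. The lists share the 22Rv1 and LNCaP control arrays with the Dox comparisons, so no overlap with those is given. Under median scaling 22 members were called, 12 higher and 10 lower, and the median of all genes moved from -0.02 to -0.12. Under that scaling 15.3% of all genes were called higher in LNCaP and 29.3% lower. The 12 of 76 members called higher thus lay near the share of all genes.

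MRPL58, which frees proteins from stalled ribosomes as well as being a ribosomal protein, was at 8.19, 8.08 and 8.05 in 22Rv1 and 9.32, 9.11 and 9.40 in LNCaP, higher by 1.17 ± 0.13 (limma adjusted p = 1.51e-07). MRPL30 was at 6.40, 6.49 and 6.38 in 22Rv1 and 7.42, 7.69 and 7.48 in LNCaP, higher by 1.11 ± 0.23 (adjusted p = 3.71e-04). MRPL22 was at 9.39, 9.39 and 9.40 in 22Rv1 and 10.65, 10.36 and 10.47 in LNCaP, higher by 1.10 ± 0.15 (adjusted p = 1.74e-06), and by 1.21 with its second probe. No array overlapped in these genes. MRPS10, counterpart of bacterial S10, was at 9.73, 9.63 and 9.66 in 22Rv1 and 8.16, 8.04 and 8.12 in LNCaP, with a difference of -1.57 ± 0.11 (limma adjusted p = 1.49e-10). MRPS35 was at 10.41, 10.34 and 10.35 in 22Rv1 and 9.26, 9.43 and 8.96 in LNCaP, with a difference of -1.15 ± 0.13 (adjusted p = 1.77e-07). MRPL43 was at 10.06, 9.97 and 9.94 in 22Rv1 and 9.28, 8.88 and 9.09 in LNCaP, with a difference of -0.91 ± 0.12 (adjusted p = 2.30e-06). The levels of MRPS10 separated the lines on all 18 arrays, since the 6 LNCaP arrays lay between 7.80 and 8.16 and the other 12 between 9.50 and 10.14. With Dox MRPS10 changed by -0.28 ± 0.11 in LNCaP and -0.06 ± 0.11 in 22Rv1, neither of which passed.

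Scramble 22Rv1-M4 and 22Rv1 without Dox differ in line and in construct together. They differ in LGALS4 as well, which was 6.54 log2 units higher in scramble 22Rv1-M4. The scramble arrays are also those of the knockdown, and the 22Rv1 arrays also serve the 22Rv1 Dox comparison. Changes in those comparisons and differences here are therefore not independent. In 22Rv1-M4, 36 members (47.4%) were higher and 3 (3.95%) lower, against 14.7% and 20.7% of all genes. In all 51.3% of members were called, against 35.4% of all genes (median 0.39, median of all genes -0.05). The rises again included MRPL47, at 7.25, 7.60 and 7.23 in 22Rv1 and 8.67, 8.30 and 9.11 in 22Rv1-M4, higher by 1.33 ± 0.27 (limma adjusted p = 5.96e-04). MRPL42 went from 9.00, 9.23 and 9.01 to 10.28, 9.89 and 10.62, higher by 1.19 ± 0.24 (adjusted p = 6.59e-04). MRPS23 went from 7.74, 7.97 and 7.99 to 8.97, 9.04 and 9.21, higher by 1.17 ± 0.25 (adjusted p = 9.06e-04). In the 3 genes every 22Rv1-M4 array was above every 22Rv1 array. The members lower in 22Rv1-M4 were MRPS27, at 9.89, 10.12 and 9.97 against 9.17, 9.28 and 8.88, with a difference of -0.88 ± 0.16 (adjusted p = 2.69e-04). MRPL10 stood at 7.88, 7.78 and 7.91 against 7.44, 7.53 and 7.00, with a difference of -0.54 ± 0.16 (adjusted p = 0.0101). MRPS31 stood at 8.47, 8.54 and 8.56 against 8.17, 8.16 and 8.33, with a difference of -0.30 ± 0.11 (adjusted p = 0.0343). These groups did not overlap either. With the axis position as a covariate 8 members were called higher and 4 lower, against 8.03% and 10.7% of all genes. Of the 6 named genes MRPL47 and MRPS27 kept their calls in that setting. MRPL10 lost its call without the third scramble array (-0.37), and MRPS31 without any 1 of the 6 arrays except the third scramble array (-0.33 to -0.27). The call of MRPL10 was also lost with the mean of its probes (-0.33), and that of MRPS31 under median scaling (-0.38) and with only the arrays compared.

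Different probes of a gene were available for 24 members. All probes had the same sign in 17 of the 24 in 22Rv1, 16 in LNCaP and 16 in the knockdown. Among called genes with several probes the numbers were 5 of 5, 8 of 11 and 6 of 7, and every probe was called the same way in 2, 6 and 5. MRPS21 is a further case of disagreement, named here after its values were seen. The brighter probe, detected on all arrays, changed by -0.33 ± 0.14 in 22Rv1 and 0.21 ± 0.14 in LNCaP and was not called. The dimmer one changed by -0.54 in 22Rv1, 0.55 in LNCaP and 0.41 in the knockdown, and passed in all 3.

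Other genes of the same machinery were counted from the same fit. Over all genes, 9.14% were called higher and 15.7% lower in 22Rv1, and 10.9% and 17.0% in LNCaP. In the knockdown these shares were 13.0% and 10.3%, and they are the background for each list below. Of 5 mitoribosome proteins with other symbols 4 were tested, and CHCHD1 rose in LNCaP by 0.90 ± 0.25 (limma adjusted p = 0.00988). In the knockdown GADD45GIP1, a large subunit protein, changed by -0.80 ± 0.24 and DAP3, a small subunit protein that binds GTP, rose by 0.44 ± 0.13. Among 16 translation factors 2 rose and 3 fell in LNCaP, led by MTIF3, an initiation factor, which rose by 1.04 ± 0.21. OXA1L, which inserts new proteins into the inner membrane, changed by -0.47 ± 0.16 in 22Rv1, -0.52 ± 0.16 in LNCaP and 0.64 ± 0.16 in the knockdown and was the 1 factor of the list called in 22Rv1. The list had 1 higher and 2 lower in the knockdown, where GFM1 and LRPPRC changed by -0.56 ± 0.15 and -0.47 ± 0.14.

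Assembly factors and enzymes that modify the ribosomal RNA, 26 tested, had 1 higher and 6 lower in 22Rv1, against 9.14% and 15.7% of all genes. In LNCaP 3 were higher and 5 lower, near the 10.9% and 17.0% of all genes. In the knockdown 6 were higher and 2 lower, against 13.0% and 10.3%. GTPBP10, a GTPase for large subunit assembly, rose by 0.80 ± 0.17 in 22Rv1, where MPV17L2 changed by -0.67 ± 0.14 and RBFA by -0.54 ± 0.16. In LNCaP TRMT10C and MTERF3 rose by 0.85 ± 0.20 and 0.78 ± 0.14, and ERAL1, which binds the small subunit RNA, changed by -0.71 ± 0.17. ERAL1 rose in the knockdown by 0.61 ± 0.17, and YBEY changed by -0.69 ± 0.16. Of 16 mitochondrial aminoacyl-tRNA synthetases 2 were called in 22Rv1, LARS2 with -0.71 ± 0.14 and VARS2 with -0.65 ± 0.14. In this list 3 rose and 4 fell in LNCaP and 4 rose and 1 fell in the knockdown. RARS2 rose in LNCaP by 0.99 ± 0.14 and IARS2 changed by -0.79 ± 0.18.

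Factors for transcription and copying of mitochondrial DNA, 12 tested, had 4 higher and 1 lower in LNCaP, against 10.9% and 17.0% of all genes. TEFM, an elongation factor, rose by 1.39 ± 0.23, MTERF1 by 1.11 ± 0.22 and TFB2M, an initiation factor, by 1.00 ± 0.19. POLRMT, the polymerase, was the only 1 of the list called in 22Rv1, with -0.45 ± 0.15, and TFAM, which packs the DNA, the only 1 in the knockdown, with -0.69 ± 0.15. None of the 15 genes of the mitochondrial genome itself was on a named probe, so the products of this ribosome were not analysed here. Among 9 nuclear regulators PPARGC1A, the coactivator PGC-1 alpha, fell in all 3 comparisons, by -1.20 ± 0.15, -0.61 ± 0.15 and -2.15 ± 0.15; NRF1 changed by -0.41 ± 0.12 in 22Rv1 and GABPB1 rose by 0.62 ± 0.15 in LNCaP.

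Genes known to respond when mitochondrial translation is inhibited moved both ways in each Dox comparison, while those called in the knockdown all fell. Of 13 tested, 1 rose and 3 fell in 22Rv1, 5 rose and 2 fell in LNCaP, and in the knockdown 4 fell and 0 rose (1 rose at an unadjusted p under 0.05 in limma). Over all genes the shares called higher and lower were 9.14% and 15.7%, 10.9% and 17.0%, and 13.0% and 10.3%, in the same order. The list's share of rises in LNCaP and of falls in the knockdown lay above these, on few genes. DDIT4 rose in 22Rv1 by 2.38 ± 0.16 (limma adjusted p = 8.57e-10), while ATF5 and PHGDH, of the same stress response, changed by -1.27 ± 0.16 and -0.60 ± 0.15. In LNCaP DDIT3, the transcription factor CHOP, rose by 1.66 ± 0.23 (limma adjusted p = 7.13e-05), MTHFD2 rose by 0.45 ± 0.14 and GDF15 changed by -0.73 ± 0.17. In the knockdown, for which no label names Dox, DDIT3 changed by -1.21 ± 0.23, DDIT4 by -1.10 ± 0.16 and SESN2 by -0.67 ± 0.18. Among 12 mitochondrial chaperones and proteases the calls were 1 fall in 22Rv1, 3 falls in LNCaP, with TRAP1 at -0.59 ± 0.14 and HSPD1 at -0.53 ± 0.14, and 2 rises in the knockdown.

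Nuclear genes for subunits of the oxidative phosphorylation complexes, most of which take up products of this ribosome, were counted beside the members. Of 76 tested, 27 rose and 11 fell in LNCaP with Dox, where 10.9% of all genes rose and 17.0% fell. The members, also 76, had 26 higher and 7 lower there. Of the oxidative phosphorylation genes 3 rose and 9 fell in 22Rv1, against 9.14% and 15.7% of all genes. In the knockdown 4 rose and 8 fell, against 13.0% and 10.3%. ATP5MK and UQCRB, of the ATP synthase and complex III, rose in LNCaP by 1.24 ± 0.24 and 1.20 ± 0.23, and UQCRB changed by -0.80 ± 0.23 in the knockdown. NDUFA5, of complex I, rose by 1.09 ± 0.24 in 22Rv1 and changed by -0.87 ± 0.24 in the knockdown. Cytosolic ribosomal proteins, 73 tested, had 10 higher and 6 lower in LNCaP, 2 and 2 in 22Rv1, and 7 and 1 in the knockdown. These counts stand against the same shares of all genes. RPS7 rose in LNCaP by 1.10 ± 0.27, and RPL24 changed by -0.75 ± 0.15 in 22Rv1. Many cytosolic ribosomal genes have near-identical pseudogene copies, so their probes may read more than 1 gene. UQCRB and RPS7 each had an axis correlation of 0.89, and the part of the axis in these counts was not tested.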

How the data were processed

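Per the labels, a Zymo kit gave the RNA, and an Ambion MessageAmp kit turned it into cRNA carrying biotin. The authors deposited, for 47303 probes on 18 arrays, linear intensity values without background subtraction (lowest value per array 83.7 to 90.9) and a detection p-value for each. They also deposited a log2 matrix, of whose 851454 values all but 114 lay within 0.01 of quantile-normalized log2 intensities; it was an alternative here. Intensities were background-corrected from the detection p-values and quantile-normalized with neqc (offset 16) in limma 3.58.1 (R 4.3.3, statmod 1.5.0), which shrinks changes of dim probes and makes changes relative to the bulk of genes. Symbols came from the platform annotation: 30103 probes had 1, 8 several, 17192 none; 30064 were looked up by Entrez ID in RefSeq and 0 changed. The probe with the highest mean stood for each gene. A single fit of 6 group means used every array (12 residual and 8.73 prior degrees of freedom), two-sided, with Benjamini-Hochberg adjustment over 13680 genes. It was tested on simulated data. Precision is limited by the 3 arrays a group. Every member may be named; array values were given for the 6 largest rises and falls per treatment comparison, the 5 smallest p-values between Dox responses and the 3 largest differences each way between lines, plus up to 3 called genes per other list. The members, the lists and MRPL47's class (corrected later) were chosen with earlier results of these data known. Replicate numbers did not pair the samples: correlations of same-numbered deviations were -0.105 to 0.111.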

Additional observations from a re-analysis of the deposited data

Results flagged for a closer look

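The Dox response differed between LNCaP and 22Rv1 in 12 members by the interaction contrast in limma (15.8%, against 18.8% of all genes), with the difference given as LNCaP minus 22Rv1 and 3 arrays a group. MRPL57 had the largest, -2.09 (adjusted p = 5.41e-04), and the response was lower in LNCaP in all 22 alternatives, from -2.33 to -1.29. Its dimmer second probe, detected on all 18 arrays, showed a difference of -0.49 that did not pass (limma adjusted p = 0.202). MRPL49 differed by 1.02, MRPL11 by 0.96, MRPS22 by 0.92 and MRPL46 by 0.92, and each of these kept its call in all 22 alternatives. MRPL3, counterpart of bacterial L3 near the catalytic centre, differed by 0.84 (adjusted p = 0.017), with 0.90 in LNCaP and 0.06 in 22Rv1; its second probe rose by 0.71 in LNCaP and 0.66 in 22Rv1 and showed a difference of 0.05, so the probes disagree. MRPS33 differed by 0.78 (adjusted p = 0.0389) and by 1.54 with its second probe. MRPL9 and MRPL51 differed by 0.68 and 0.67. The difference went the other way in MRPL10 (-0.73), MRPS25 (-0.71) and MRPL52 (-0.55). MRPL10 changed in LNCaP, MRPS25 and MRPL52 in 22Rv1.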

How the results depend on the processing

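Results were recomputed with the deposited log2 matrix, median scaling, no detection filter or detection on all 18 arrays, the mean of a gene's probes, only the arrays compared, a replicate block, the within-group axis, array weights and each array left out, and, chosen after seeing the data, with the axis position as a covariate. For the named genes, 778 of 878 alternative values kept their call, 100 lost it and 0 changed direction, and 23 of 53 gene results kept it throughout. Median scaling called 3 members higher and 4 lower in 22Rv1, 22 and 4 in LNCaP, 1 and 11 in the knockdown and 22 between the lines; over all genes the share of calls that were higher moved from 36.8% to 25.3% in 22Rv1, 39.1% to 48.5% in LNCaP, 55.7% to 34.9% in the knockdown, 49.9% to 61.5% between the responses and 47.1% to 34.2% between the lines. Over all genes median scaling called 5.34% higher and 15.8% lower in 22Rv1, 7.85% and 8.33% in LNCaP and 4.92% and 9.16% in the knockdown. With only the arrays compared, 4 members were lower in 22Rv1, against 12.7% of all genes, and 2 higher in the knockdown, against 9.72%. The within-group axis gave 17 higher in 22Rv1, 18 lower in the knockdown and 25 different Dox responses. Over all genes it called 11.7% higher in 22Rv1 and 13.3% lower in the knockdown. Between the responses it called 12.9% of all genes higher and 12.4% lower. Array weights gave 24 higher and 23 lower in 22Rv1, 11 lower in LNCaP, 12 higher and 17 lower in the knockdown and 24 different responses. Over all genes the weights called 18% higher and 30.1% lower in 22Rv1, and 18.5% and 17.5% in the knockdown. They called 25.4% lower in LNCaP, and 17.9% higher and 16.3% lower between the responses. The axis position left 1 higher and 0 lower in LNCaP, 7 different responses and 12 members between 22Rv1-M4 and 22Rv1. Over all genes it left 1.24% higher and 0.541% lower in LNCaP. The shares of all genes were 9.02% and 8.06% between the responses and 8.03% and 10.7% between 22Rv1-M4 and 22Rv1. Leaving out 1 array gave 4 to 22 higher and 3 to 7 lower in 22Rv1, 18 to 25 higher and 4 to 7 lower in LNCaP, 3 to 5 higher and 4 to 10 lower in the knockdown and 7 to 22 different responses. Over all genes it gave 6.78% to 11.6% higher and 11.1% to 19.4% lower in 22Rv1. In LNCaP the shares were 8.38% to 9.51% and 10.2% to 13.6%, and in the knockdown 9.42% to 11.9% and 7.45% to 10.4%. Between the responses they were 6.87% to 11.5% and 7.46% to 11.7%. The replicate block gave 7 higher and 7 lower in 22Rv1, 25 and 7 in LNCaP, 5 and 8 in the knockdown and 11 different responses. Over all genes it gave 8.55% and 14.5%, 10.3% and 15.6%, 12.2% and 9.6%, and 8.23% and 8.63%, in the same order. Of the named genes it took the call of MRPL41 in the knockdown. Over all genes, 3394 were called in 22Rv1, 3809 in LNCaP, 3193 in the knockdown, 2572 between the responses and 4849 between 22Rv1-M4 and 22Rv1. Median scaling called 2213 in LNCaP, 1926 in the knockdown and 1707 between the responses. Array weights called 6582 in 22Rv1, 4921 in the knockdown and 4673 between the responses, and the axis position 243 in LNCaP and 2558 between 22Rv1-M4 and 22Rv1. The cause of these shifts was not tested.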
